A study of Homo sapiens with 4 samples.

Results

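The 9 genes described here encode utrophin, dystrophin and the membrane proteins bound to them: UTRN, DMD, DAG1, SGCB, SGCE, DTNA, DTNB, SNTB1 and SNTB2. They were taken by gene symbol from the RNA-seq tables of the line G401, which comes from a kidney rhabdoid tumour. The deposited tables list 57820 gene models, of which 15288 passed the filter on low counts. All 9 genes were found and all 9 passed that filter. They were chosen by their expected counts and TPM in the comparison of BRD9 KO with LacZ control, with earlier results of it known. Their differences between the groups are therefore given as values, without a test.

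Transcripts were sequenced in 2 libraries of BRD9 KO cells and in 2 libraries of LacZ control cells. All 4 libraries came from G401 cells grown in DMEM with FBS, per the labels. BRD9 is a bromodomain subunit of a SWI/SNF chromatin remodelling complex, and the paper describes its removal from G401 cells by CRISPR-Cas9. LacZ is the name the labels give the control. The sources used here do not give the time of harvest, the selection of RNA or whether the BRD9 KO cells were a clone or a pool. The paper does report that no G401 clone lacking BRD9 could be recovered. It also reports that loss of BRD9 impaired the growth of G401 cells. The methods call the libraries biological replicates. Since no label says that separate cultures were used, any p-value given reflects the spread of 4 libraries, and part of it could be technical.

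In muscle, dystrophin ties the actin cytoskeleton to dystroglycan in the plasma membrane, and dystroglycan binds laminin outside the cell. Utrophin is the close relative of dystrophin and holds the same place at the neuromuscular synapse and in many other tissues, including epithelia. Sarcoglycans brace the membrane side of the complex, whereas dystrobrevins and syntrophins bind it from the cytoplasm and recruit signalling proteins.

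Total counts ran from 15053195 to 19559200 per library, and 22985 to 23790 genes had a count above 0. BRD9 itself was at 29.4 and 26.8 CPM (counts scaled by library size) in BRD9 KO cells, against 48.2 and 53.8 CPM in LacZ cells. Its log2 fold change was -0.86 ± 0.07 (SE), so BRD9 transcripts were reduced, not absent, and reads of exons shared with ZDHHC11 on the same strand cannot be told apart. SMARCB1, which rhabdoid tumours lack, had 0 counts in all 4 libraries, which allows up to 0.199 CPM in the shallowest library, for counting error only. Over all genes tested, 20.5% were called higher and 18.1% lower in BRD9 KO cells, together 38.6% (edgeR quasi-likelihood test, Benjamini-Hochberg adjusted p below 0.05). The median log2 fold change of all tested genes was -0.01. In 68.6% of tested genes the CPM values of the groups did not overlap.

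UTRN showed by far the widest difference among the 9 genes. It lies at chr6:144606471-145174170 on the plus strand of hg19 and spans 567.7 kb. The longest annotated form starts at the upstream end of the gene, and the next longest, UTRN-007, starts inside it and lacks the upstream exons. The 200 bases before each of those starts are shown because the libraries differed in the mean length of UTRN transcripts, described further on. The sequences were read from GRCh37, with GC boxes (GGGCGG or its reverse complement CCGCCC) in capitals.

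UTRN-001 (chr6:144606271-144606470, plus strand): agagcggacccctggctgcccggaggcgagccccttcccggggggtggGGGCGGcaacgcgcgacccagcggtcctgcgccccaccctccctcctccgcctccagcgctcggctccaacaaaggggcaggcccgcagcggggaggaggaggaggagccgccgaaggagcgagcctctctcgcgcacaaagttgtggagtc
UTRN-007 (chr6:144904107-144904306, plus strand): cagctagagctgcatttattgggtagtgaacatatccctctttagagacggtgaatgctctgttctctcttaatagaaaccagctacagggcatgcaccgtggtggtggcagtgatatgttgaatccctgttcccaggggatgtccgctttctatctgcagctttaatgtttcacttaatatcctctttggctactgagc

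The start of the longest form lay in CpG-rich sequence, with 20 CpG, 74% GC and 1 GC box. The internal start had 3 CpG, 46% GC and no GC box. Over the equivalent windows of 14807 tested genes, the medians were 14 CpG and 62.5% GC, and 51.9% held a GC box. The ETS core CCGGAA (found in 16.9% of all windows), the AP-1 motif TGANTCA (3.16%) and the E-box CANNTG (48.9%), searched on both strands, had no match in either UTRN window. A match or its lack describes these letters only.

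UTRN had 50 and 39 reads in BRD9 KO cells, against 183 and 175 reads in LacZ cells. After scaling these were 2.56 and 2.39 CPM in BRD9 KO cells and 12.1 and 10.5 CPM in LacZ cells. Both BRD9 KO libraries lay far below both LacZ libraries. The log2 fold change was -2.18 ± 0.16 (SE), so that the BRD9 KO level was 22.0% of the LacZ level. Per transcript length, UTRN stood at 0.43 and 0.39 TPM (transcript abundance within a library) in BRD9 KO cells, against 3.02 and 2.36 TPM in LacZ cells. UTRN was thus a low-level transcript in both groups. In bulk samples, fewer cells that express a gene and less RNA per cell cannot be told apart.

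The size of the difference depended on the estimate. The LacZ over BRD9 KO ratio of the group means was 4.57 on the CPM scale and 6.56 on the TPM scale. The authors also gave a posterior mean TPM, a different estimate from the same reads. The posterior mean was 2.67 and 2.78 in BRD9 KO cells, against 6.14 and 5.48 in LacZ cells, and gave a ratio of 2.13. It lay above the TPM in every library for UTRN, and also for SGCE, DTNA, DTNB, SNTB1 and SNTB2. For DMD, DAG1 and SGCB it lay below the TPM in every library. Why it lay higher for UTRN, and how much this lowers the ratio, was not tested. Its credibility intervals ran from 1.41 to 4.09 and from 1.42 to 4.31 in the BRD9 KO libraries, and from 3.79 to 8.64 and from 3.33 to 7.76 in the LacZ libraries. These intervals overlapped in part, so the direction was shared by all 3 scales while the size was not.

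The mean transcript length of UTRN, weighted by the estimated level of each form, was 9951 and 10359 bases in BRD9 KO cells, against 6711 and 7388 bases in LacZ cells. The groups did not overlap, and the difference of the means was 3105 bases. Non-overlapping lengths were common, at 31.0% of all tested genes, a share that does not speak to the size of a difference. Counts and TPM together fix this length, so it is not independent of the values that chose the genes, and it is given as a description without a test.

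The annotated lengths bound what such means allow. The longest UTRN form has 12918 bases, the next 5227 and the shortest 347. If only these forms were present, the longest made up 61.4 to 76.4% and 66.7 to 79.6% of UTRN transcripts in the BRD9 KO libraries, against 19.3 to 50.6% and 28.1 to 56.0% in the LacZ libraries. In TPM, the shorter forms together came to 0.101 to 0.166 and 0.0794 to 0.130 in the BRD9 KO libraries, against 1.49 to 2.44 and 1.04 to 1.70 in the LacZ libraries. The longest form came to 0.264 to 0.329 and 0.260 to 0.311 TPM in the BRD9 KO libraries, against 0.583 to 1.53 and 0.663 to 1.32 TPM in the LacZ libraries. By these bounds the shorter forms and the longest form were both lower in BRD9 KO cells. The bounds rest on 39 to 183 reads per library and on the point estimate of TPM, and the annotation used here held 11 of the 12 UTRN transcripts of the tables, 6 of them in the same version.

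**Figure D1:**
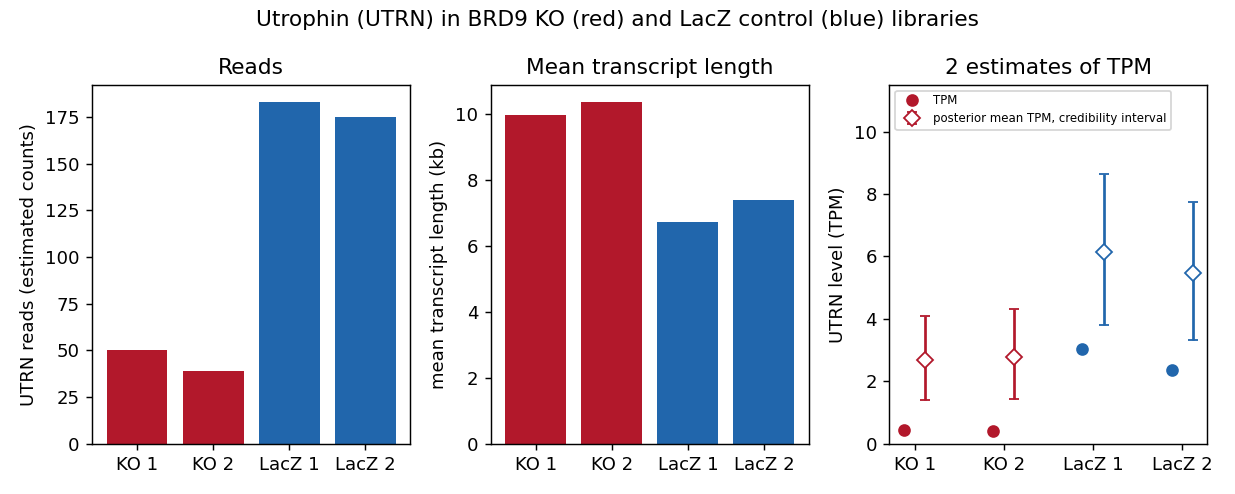
UTRN in the 2 BRD9 KO libraries (red) and the 2 LacZ control libraries (blue). Left, estimated read counts; middle, mean transcript length in kb; right, TPM (filled circles) and posterior mean TPM with its credibility interval (open diamonds). Reads were fewer and the mean transcript longer in both BRD9 KO libraries, and the posterior mean lay above the TPM in all 4.

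DMD, which encodes dystrophin, was the most abundant of the 9 genes and was higher in BRD9 KO cells. It lies at chrX:31115794-33357726 on the minus strand and spans 2241.9 kb. The full-length muscle form, DMD-001, starts in the upstream part of the gene, whereas a short form of non-muscle tissues, Dp71, starts near the downstream end. The 200 bases before each of these starts, written in the direction of transcription, are shown because the mean DMD transcript in these cells was far shorter than the full-length form.

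DMD-013 (short form, chrX:31285070-31285269, minus strand): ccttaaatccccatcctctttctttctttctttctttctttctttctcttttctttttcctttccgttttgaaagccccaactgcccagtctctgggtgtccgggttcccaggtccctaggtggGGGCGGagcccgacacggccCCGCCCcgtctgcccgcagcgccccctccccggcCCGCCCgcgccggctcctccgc
DMD-001 (full-length form, chrX:33229667-33229866, minus strand): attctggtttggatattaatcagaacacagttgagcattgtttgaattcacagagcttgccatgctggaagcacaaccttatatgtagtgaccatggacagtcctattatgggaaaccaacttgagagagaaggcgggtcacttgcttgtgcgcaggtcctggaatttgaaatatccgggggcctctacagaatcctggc

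The short-form start had 15 CpG, 62.5% GC and 3 GC boxes, and the full-length start had 3 CpG, 46% GC and none. The E-box CANNTG matched 1 time before the short form and 2 times before the full-length form. The ETS core and the AP-1 motif had no match in either DMD window.

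DMD stood at 310 and 319 CPM in BRD9 KO cells, against 268 and 267 CPM in LacZ cells. The log2 fold change was 0.23 ± 0.02 (SE), and both BRD9 KO libraries lay above both LacZ libraries. Per length, DMD was at 134 and 136 TPM in BRD9 KO cells and at 116 and 117 TPM in LacZ cells. The mean DMD transcript was 3932 and 3971 bases long in BRD9 KO cells, against 3896 and 3821 bases in LacZ cells. This was 27.3 to 28.4% of the longest annotated form, of 13992 bases. Among the annotated forms, the short form shown has 4645 bases, and DMD-002, which starts at the upstream end of the gene model, has 4024 bases. The tables do not give the level of each form, and a mean length does not tell which forms were present.

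DMD transcripts outnumbered those of UTRN in every library. The DMD over UTRN ratio of TPM was 311 and 348 in BRD9 KO cells, against 38.4 and 49.7 in LacZ cells. On the posterior mean TPM it was 48.1 and 46.6 in BRD9 KO cells, against 18.2 and 20.6 in LacZ cells. The ratio was higher in BRD9 KO cells by either estimate, while its size was not shared. UTRN made up 0.321% and 0.287% of the summed DMD and UTRN level in BRD9 KO cells, against 2.54% and 1.97% in LacZ cells. On the posterior mean TPM this share was 2.04% and 2.10% in BRD9 KO cells, against 5.22% and 4.63% in LacZ cells. The summed TPM of both genes was 134 and 136 TPM in BRD9 KO cells and 119 and 120 TPM in LacZ cells.

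DAG1 encodes dystroglycan, whose alpha and beta chains link the laminin side to dystrophin or utrophin. It was at 247 and 242 CPM in BRD9 KO cells, against 326 and 315 CPM in LacZ cells. The log2 fold change was -0.39 ± 0.02 (SE). Per length, DAG1 stood at 82.5 and 78.5 TPM in BRD9 KO cells, against 103 and 102 TPM in LacZ cells. DMD and DAG1 thus moved in opposite directions, and their TPM ratio was 1.62 and 1.73 in BRD9 KO cells, against 1.12 and 1.15 in LacZ cells.

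**Figure D2:**
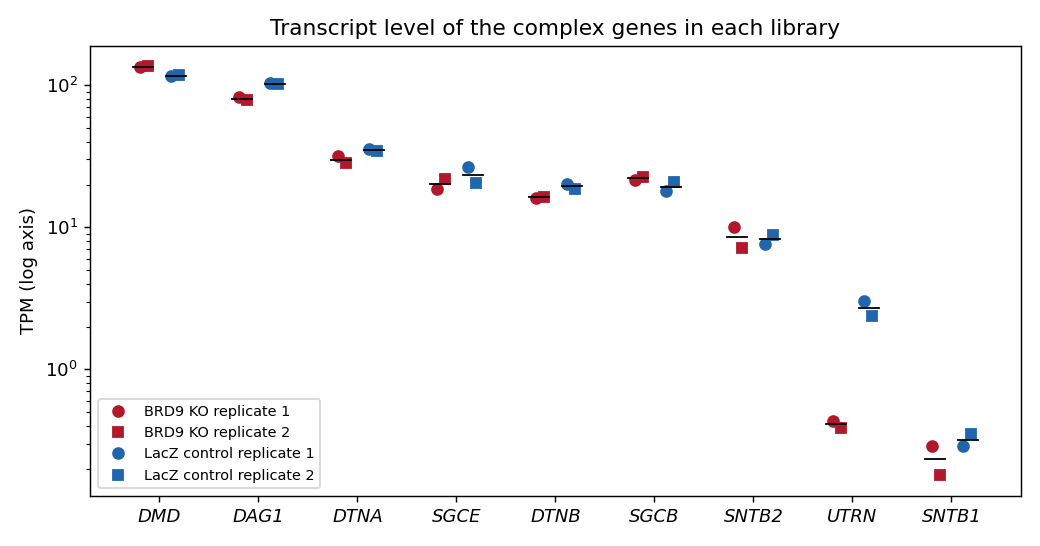
TPM of the 9 genes in each library, on a log axis, in the order of the LacZ mean. BRD9 KO libraries (red) stand left of LacZ control libraries (blue), circles are replicate 1, squares replicate 2, and bars the group means. The UTRN points are separated by the widest gap, with 0.43 and 0.39 TPM in BRD9 KO cells against 3.02 and 2.36 TPM in LacZ cells.

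The sarcoglycans showed small differences. SGCB, the beta subunit, was at 46.5 and 44.1 CPM in BRD9 KO cells, against 41.9 and 43.6 CPM in LacZ cells, with a log2 fold change of 0.09 ± 0.05 (SE). SGCE, the epsilon subunit found widely outside muscle, was at 17.0 and 19.2 CPM in BRD9 KO cells, against 19.5 and 18.4 CPM in LacZ cells, with a log2 fold change of -0.07 ± 0.09 (SE). The SGCB groups were just apart and the SGCE groups overlapped. An exon of SGCE overlaps PEG10 on the other strand, and reads there cannot be told apart, since the kit does not mark strand.

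The dystrobrevins, cytoplasmic relatives of dystrophin that bind its tail and the syntrophins, were both somewhat lower. DTNA was at 52.8 and 46.8 CPM in BRD9 KO cells, against 59.0 and 57.1 CPM in LacZ cells, with a log2 fold change of -0.21 ± 0.05 (SE). DTNB was at 18.6 and 18.3 CPM in BRD9 KO cells, against 22.7 and 20.4 CPM in LacZ cells, with a log2 fold change of -0.22 ± 0.08 (SE). Neither gene overlapped between groups. The DTNA over DTNB ratio of TPM was 1.95 and 1.73 in BRD9 KO cells, against 1.78 and 1.85 in LacZ cells, so the balance of the dystrobrevins stayed within the spread of the libraries.

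The syntrophins, adaptors with a PDZ domain, differed in level more than in response. SNTB2 was at 43.7 and 41.8 CPM in BRD9 KO cells, against 39.4 and 41.8 CPM in LacZ cells, with a log2 fold change of 0.07 ± 0.06 (SE). SNTB1 had 17.1 and 9 reads in BRD9 KO cells, against 12 and 17 reads in LacZ cells, and a log2 fold change of -0.34 ± 0.44 (SE). The groups of SNTB1 overlapped, and at this depth a difference of the size of its error was not detectable. Per length, SNTB2 exceeded SNTB1 by a factor of 34.6 and 39.6 in BRD9 KO cells and of 26.3 and 25.2 in LacZ cells. Exons of SNTB1 overlap MTBP on the other strand, and those of SNTB2 overlap ENSG00000260914 on the same strand.

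At the threshold used for all genes, 1 of the 9 (DMD) was higher and 4 (UTRN, DAG1, DTNA and DTNB) were lower in BRD9 KO cells, against 20.5% higher and 18.1% lower over all tested genes. The groups did not overlap for 6 of the 9, against 68.6% over all tested genes. Because the contrast was known when the genes were chosen, nothing is read from these counts. Leaving out BRD9 KO replicate 2 or LacZ control replicate 1 left 3 called genes, UTRN, DMD and DAG1. The summed TPM of the 9 genes was 315 and 311 in BRD9 KO cells, against 330 and 325 in LacZ cells.

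The order of the levels was alike in both groups at the top and at the bottom. DMD, DAG1 and DTNA led in both, and SGCB, SGCE and DTNB came next. Of these, SGCB, at 22.1 ± 0.76 TPM (SD, n = 2), and SGCE, at 20.2 ± 2.2 TPM (SD, n = 2), did not differ beyond their spread in BRD9 KO cells. In LacZ cells SGCE at 23.5 ± 4.2 TPM, DTNB at 19.4 ± 1.1 TPM and SGCB at 19.3 ± 2.0 TPM (SD, n = 2) did not differ beyond theirs. SNTB2 followed, then UTRN and SNTB1. In BRD9 KO cells UTRN, at 0.41 ± 0.028 TPM (SD, n = 2), stood next to SNTB1, at 0.235 ± 0.078 TPM (SD, n = 2).

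**Figure D3:**
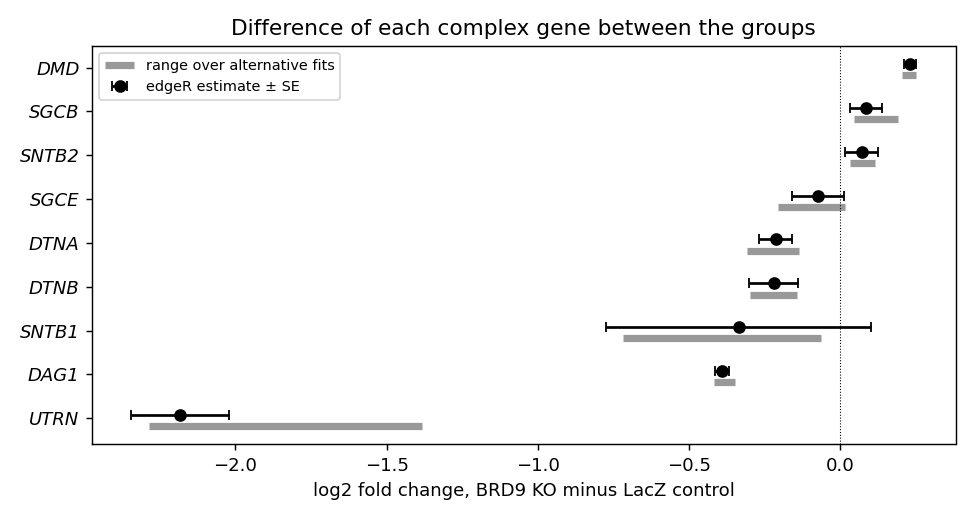
Log2 fold change of each of the 9 genes, BRD9 KO minus LacZ control. Black points are the edgeR estimate with its standard error, grey bars the range over the 11 or 12 alternative fits of each gene. UTRN lies at -2.18 and the others between -0.39 (DAG1) and 0.23 (DMD), and only the grey bar of SGCE crosses 0.

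Mean transcript length differed less between the groups in the other genes than in UTRN. The DMD and DTNA groups were just apart, at differences of 92.8 and 33.4 bases. The SNTB1 groups did not overlap either, and SNTB1 was at 5164 and 5164 bases in BRD9 KO cells, against 4534 and 4866 bases in LacZ cells, from 9 to 17.1 reads per library. SNTB2 had the widest spread within a group, with 7308 and 9789 bases in BRD9 KO cells and 8607 and 7882 bases in LacZ cells.

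Of 12 further subunits of the complex, 4 were tested. SGCA, the alpha sarcoglycan of striated muscle, was lower, with 1.28 and 1.41 CPM in BRD9 KO cells against 3.52 and 3.48 CPM in LacZ cells, a log2 fold change of -1.38 ± 0.25 (SE) and an adjusted p of 2.2e-04 by the edgeR test. SSPN (sarcospan) and DRP2 (a dystrophin-related protein) did not pass, with log2 fold changes of -0.11 and -0.38. SGCD, SGCZ, SNTG1, SNTG2 and DYTN had 0 counts in all 4 libraries. NOS1 and CAV3 had at most 1 count in any library. The delta sarcoglycan of the muscle complex thus had no counts, beside SGCB at 41.9 to 46.5 CPM.

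Skeletal muscle markers were low. Of 15 markers, 6 were at 0 in all libraries, among them MYOG and MYF5, and MYOD1 had 1 count in 1 LacZ library. Their summed level was 9.62 and 10.6 TPM in BRD9 KO cells, against 20.4 and 28.9 TPM in LacZ cells. Without TNNC2 the other 14 summed to 5.47 and 7.22 TPM in BRD9 KO cells, against 7.28 and 7.48 TPM in LacZ cells, so most of the gap lay in 1 gene. Of the 3 tested, 1 (33.3%) was lower, the troponin C gene TNNC2, against 18.1% of all tested genes. Its log2 fold change was -2.20 ± 0.26 (SE), with an adjusted p of 2.7e-06 by the edgeR test. Of 10 kidney epithelium markers 3 were tested, and PAX2 and SLC12A3 were lower (66.7%, against 18.1% of all tested genes). The log2 fold changes of these genes were -1.04 and -3.08. The kidney list summed to 6.24 and 6.91 TPM in BRD9 KO cells and 16.6 and 14.6 TPM in LacZ cells. Of the kidney markers AQP2 was at 0 in all libraries. Fibroblast and endothelium markers summed to 75.4 and 80.5 TPM in BRD9 KO cells and 70.5 and 75.5 TPM in LacZ cells. Most of that sum was PDGFRB, at a mean of 62.9 TPM in BRD9 KO cells and 58.2 TPM in LacZ cells. PDGFRA was at a mean of 14.0 TPM in BRD9 KO cells and 14.3 TPM in LacZ cells. None of 3 tested passed, against 38.6% of all tested genes, and DCN, CDH5 and KDR were at 0. With 3 genes tested in each marker list, nothing is read from these shares. The part of these markers in the UTRN result was not tested.

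Of 18 genes that build the sugar chains of dystroglycan, 17 were tested, 5 were higher (29.4%) and none was lower in BRD9 KO cells, against 20.5% and 18.1% of all tested genes, and the list was not tested as a group. Among them were DOLK and DPM1, which supply dolichol-linked mannose, and B3GNT1 (now B4GAT1) and POMGNT1, which act on the sugar chain itself. DOLK was at 25.1 and 24.8 CPM in BRD9 KO cells, against 17.4 and 18.5 CPM in LacZ cells, with a log2 fold change of 0.47 ± 0.08 (SE). DPM1 and POMGNT1 had log2 fold changes of 0.27 each and B3GNT1 of 0.30, a call lost with limma on log2(TPM + 1). LARGE, the enzyme that makes the laminin-binding sugar, had 0 counts in all 4 libraries, whereas its relative GYLTL1B (LARGE2) was at 5.35 and 3.45 TPM in BRD9 KO cells and 5.70 and 4.34 TPM in LacZ cells. The median log2 fold change of the list was 0.03.

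Of 15 genes for ligands of dystroglycan, 8 were tested, 1 was higher (12.5%) and 4 were lower (50%). Over all tested genes these shares were 20.5% and 18.1%, and none of the lists was tested as a group. LAMB1, the laminin beta-1 chain, was at 4.62 and 4.47 CPM in BRD9 KO cells, against 9.29 and 10.9 CPM in LacZ cells, with a log2 fold change of -1.15 ± 0.15 (SE). HSPG2 (perlecan), LAMA5 and LAMA4 were also lower, at -0.38, -0.22 and -0.16. AGRN (agrin) was higher, at 0.15. The abundant chains LAMB2 and LAMC1 did not pass, at 0.02 and 0.00, and LAMA2, the muscle laminin chain, had at most 1 count.

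Of 19 genes for cytolinkers, spectrin-repeat proteins and the filament and adhesion proteins they work with, 16 were tested. Among those, 7 were higher (43.8%) and 4 lower (25%), against 20.5% and 18.1% of all tested genes. DST (dystonin) was higher, with 872 and 880 CPM in BRD9 KO cells against 593 and 589 CPM in LacZ cells and a log2 fold change of 0.57. KRT8 (keratin 8) and ACTN1 (alpha-actinin 1) were higher, at 0.42 and 0.37, and ACTN4 (alpha-actinin 4) and FLNC (filamin C) were lower, at -0.33 and -0.23. The medians lay near 0, at 0.01 for this list. DST and UTRN, both large genes with spectrin repeats on chromosome 6, thus differed in opposite directions. SYNE1, a further large gene of this list on chromosome 6, did not pass, at 0.01.

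Of 14 adaptor and signalling partners, 9 were tested and 3 were lower (33.3%, against 18.1% of all tested genes), with a median of 0.02. MAST2, a kinase that binds the syntrophins, was at -0.22. The calls of TRPC1, a cation channel, and PGM5 (aciculin, a utrophin partner) were lost with DESeq2 and without either LacZ library, that of TRPC1 also without BRD9 KO replicate 1 and that of PGM5 without BRD9 KO replicate 2. Their log2 fold changes by edgeR were -0.16 ± 0.06 and -1.48 ± 0.47 (SE). PGM5 rested on 12.8 and 4.42 reads in BRD9 KO cells, against 17.6 and 23.7 reads in LacZ cells. Limma on log2(TPM + 1) called neither gene, and TRPC1 was also not called with limma-voom or with no filter on low counts. MAST2 was not called with limma on log2(TPM + 1) or without LacZ control replicate 2. Of 10 agrin and MuSK synapse genes, 3 were tested and none passed, with LRP4, the agrin receptor, at -0.07 and CHRNB1, an acetylcholine receptor subunit, at 0.23 (adjusted p = 0.33 and 0.057 by edgeR).

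Of 16 genes reported to act on utrophin transcription or transcript stability, 12 were tested, with a median of 0.03. Among those, 2 were higher (16.7%) and 4 lower (33.3%), against 20.5% and 18.1% of all tested genes. ERBB3, a neuregulin receptor, was at 40.2 and 41.1 CPM in BRD9 KO cells, against 57.1 and 52.5 CPM in LacZ cells, with a log2 fold change of -0.43. PPARD (a nuclear receptor), NFATC1 and SP1 were lower, at -0.39, -0.24 and -0.17. GABPA, the ETS-family activator of the upstream utrophin promoter, was higher, at 0.15, and KHSRP, which promotes decay of utrophin transcripts, was higher, at 0.08. The calls of ERBB3, PPARD and SP1 were lost with limma on log2(TPM + 1), and that of KHSRP without LacZ control replicate 1. The calls of NFATC1 and GABPA were lost in 5 of 12 alternatives each, among them DESeq2 and the fits without BRD9 KO replicate 2 and without either LacZ library. ETS1 and ETS2 had at most 5 counts in any library. The part of these genes in the UTRN result was not tested. Among the genes named from the lists, exons of SSPN, LAMB1, LAMA5, HSPG2, POMGNT1, DPM1, ACTN4, KRT8, GABPA, PGM5 and LRP4 overlap a gene on the other strand, and those of ERBB3 and CHRNB1 a gene on the same strand.

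**Figure D4:**
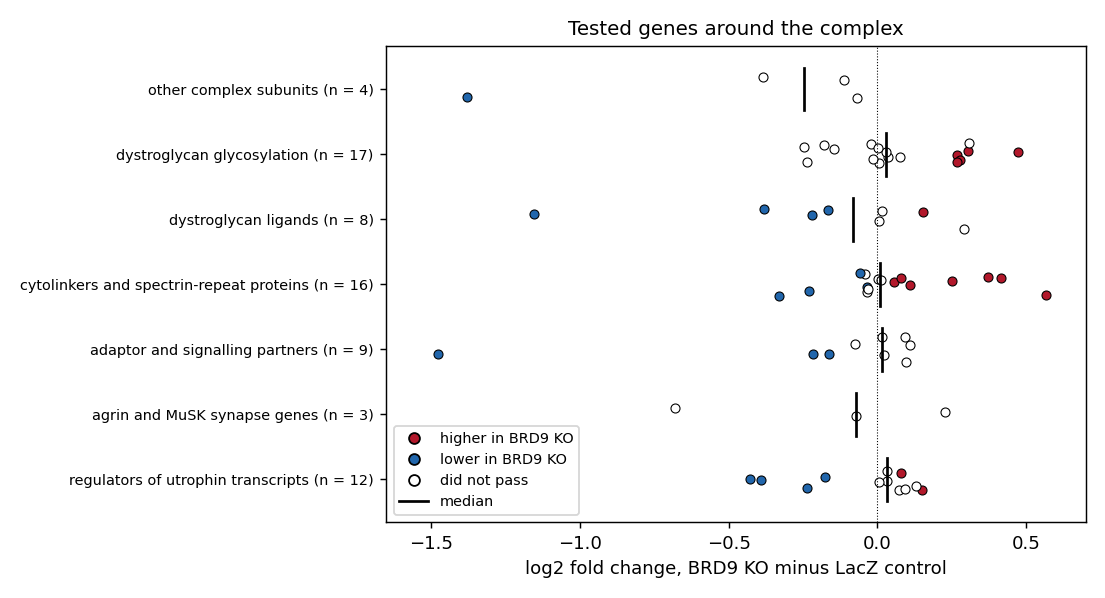
Log2 fold change (BRD9 KO minus LacZ control) of every tested gene in 7 lists around the complex, with the number tested in parentheses and a bar at the median. Red points were called higher and blue points called lower in BRD9 KO cells by edgeR (adjusted p below 0.05), and white points did not pass. The list medians lie between -0.25 and 0.03.

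The genes next to UTRN on the chromosome did not share its lower level. Among the 3 nearest tested genes on each side, LTV1, PLAGL1 and EPM2A were higher (50%, against 20.5% of all tested genes). Their log2 fold changes were 0.50 ± 0.05, 0.25 ± 0.04 and 0.45 ± 0.16 (SE). The adjusted p was 1.9e-07, 3.0e-05 and 0.032 by the edgeR test. SF3B5, RP11-545I5.3 and FBXO30 did not pass, at -0.06, -0.15 and -0.07. The call of EPM2A was lost with DESeq2 and with any 1 library left out. These genes start between -442.0 and 1529.5 kb from the start of UTRN, and exons of RP11-545I5.3 overlap FBXO30 and SHPRH on the other strand. Of the 54 neighbours of the 9 genes together, 11 were higher and 10 were lower (38.9%), against 38.6% of all tested genes, and their median was -0.02.

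**Figure D5:**
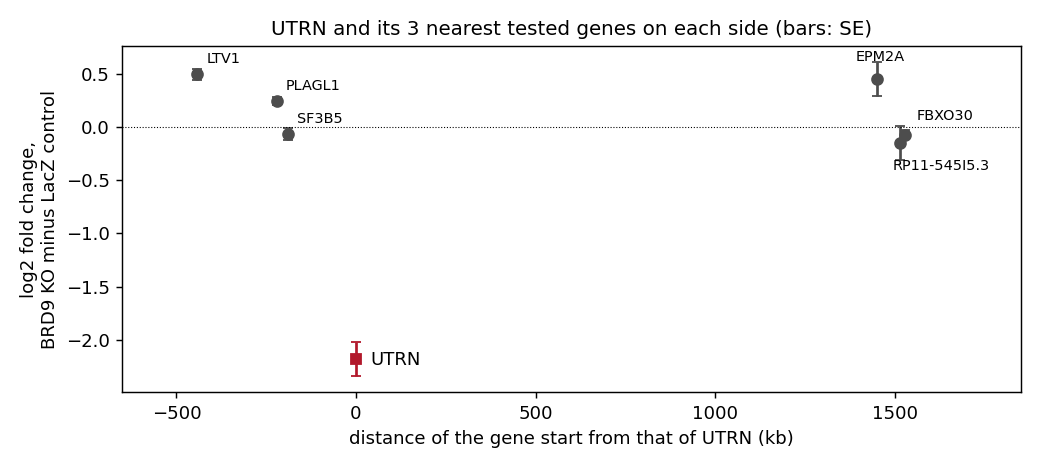
Log2 fold change (BRD9 KO minus LacZ control, with SE) of UTRN (red square) and of the 3 nearest tested genes on each side (grey circles), against the distance of their starts from that of UTRN in kb. UTRN lies at -2.18 and its neighbours between -0.15 and 0.50.

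UTRN and DMD are among the longest genes tested. Of the 122 tested genes that span at least 500 kb, 14 were higher and 42 lower in BRD9 KO cells, with a median log2 fold change of -0.07. With UTRN and DMD left out, 13 of 120 were higher (10.8%) and 41 lower (34.2%), against 20.5% and 18.1% of all tested genes. Of the 264 genes with a mean transcript of at least 8 kb, 69 were higher (26.1%) and 81 lower (30.7%), with a median of -0.01. Both of these shares stood above those of all tested genes, for a reason that was not tested. Lower calls were thus the more frequent in long-span genes, and DMD and UTRN stood on opposite sides of that group. With DESeq2, 3 of the 122 were higher and 26 lower. DESeq2 also called fewer genes in all, 1885 higher and 1454 lower of the 15288 tested, so the edgeR shares are not its background.

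The genes nearest to UTRN in their pattern over the 4 libraries were THBS1, AF131217.1, ANKRD34B, STRA6 and FGFBP3. Likeness was the root mean square difference of log2 CPM, centred on each gene, over the 11225 tested genes that averaged 5 CPM or more, and with 4 libraries in 2 groups it mostly orders genes by the size of their difference. The difference was 0.087, 0.10, 0.24, 0.28 and 0.28 for these genes. THBS1, which encodes thrombospondin 1, was at 4.67 and 4.71 CPM in BRD9 KO cells, against 22.0 and 21.9 CPM in LacZ cells.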

How the data were processed

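RNA-seq libraries of G401 cells were analysed, 2 of BRD9 KO and 2 of LacZ control, grouped by their labels. The labels name a Direct-zol extraction and the methods Trizol with a column, which is unsettled here; the NEBNext Ultra kit named does not mark strand. Alignment by the authors was to hg19 with STAR, and the deposited expected counts (estimated counts per gene) are theirs from RSEM, which divides reads shared between genes by a model and does not scale libraries. The authors' TPM columns, made by RSEM, are the point estimate, which sums to the same total in each library, and the posterior mean with its credibility interval. The submitters' processing notes also name DESeq2, with no versions.

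Counts were rounded and tested with edgeR 4.0.16 (R 4.3.3): TMM scaling, filterByExpr, robust quasi-likelihood fit without covariate, two-sided, adjusted over 15288 genes. CPM values are TMM-scaled, log2 fold changes are given as BRD9 KO minus LacZ control, and the groups were fitted together. Replicates gave a chi-square of 1.59 (BRD9 KO) and 1.62 (LacZ control) per degree of freedom and were kept as separate libraries. Tested on simulated data of 15288 genes with 200 changed, the edgeR test for BRD9 KO against LacZ control recovered 68% of genes raised 1.5-fold, 78% at 2-fold and 100% at 4-fold, and 80% of genes lowered to 0.25 of their level. Of its calls, 12.8% were false, more than the nominal share. The simulation changed only 200 genes, whereas 38.6% of tested genes were called in the data. The simulated shares therefore need not hold for the calls reported here. Sequences and coordinates come from GRCh37 with GENCODE, matched by Ensembl identifier for 55538 models.

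The members and the gene lists were chosen with earlier results of these data known. Genes were named by a rule: BRD9 and the 9 genes, up to 4 called genes of each list with the smallest p (or the 2 most abundant tested ones), the 3 nearest tested genes on each side of UTRN, and the 5 genes with a pattern nearest to that of UTRN. Other list members named were picked after seeing their values. The alternatives tried were limma 3.58.1 (voom, and on log2(TPM + 1)), DESeq2 1.42.0, RLE size factors, library totals, no filter, a filter of 1 CPM in all 4 samples, a replicate block, leaving out 1 library at a time, effective length, and, added after seeing the data, the posterior mean TPM and the muscle marker sum without TNNC2. A permutation test planned for transcript length was left out, since counts and TPM fix that length. Some genes of the lists are counted but not reported here by name.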

Additional observations from a re-analysis of the deposited data

How the results depend on the processing

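Across 12 alternative fits UTRN, DMD and DAG1 kept direction and call, DTNA was called in 9 and DTNB in 5, and SGCE changed sign in 1. The log2 fold change of UTRN ran from -2.29 to -1.38, with -1.38 for limma on log2(TPM + 1), a scale that compresses low genes, and -0.87 for log2(posterior mean TPM + 1), added after seeing the data and without a test. DESeq2 called 1885 genes higher and 1454 lower, 5 neighbours lower, 3 long-span genes higher and 26 lower, and 40 long-transcript genes higher. Limma on log2(TPM + 1) called 1358 genes higher and 1106 lower, 3 of the 9 genes, 9 list genes higher and 9 lower, 6 neighbours higher and 2 lower, 4 long-span genes higher and 14 lower, and 12 long-transcript genes higher and 14 lower. With a span of at least 300 kb, 60 of 383 genes were higher and 113 lower, and with 5 neighbours on each side 20 of 90 were higher. The cause of these shifts was not tested, beyond the larger sets in the last 2. With 1 library left out, 3 to 5 of the 9 genes were called, 10 to 15 list genes were lower, 6 to 8 neighbours were lower and 6 to 7 long-span genes were higher. The replicate block gave 3226 genes higher and 2883 lower. Deviations of same-numbered libraries correlated at -0.05, so the numbers are not taken to pair them.

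Few reads limit UTRN (39 to 183 per library) and SNTB1 (9 to 17.1). The tables give no level per transcript form, and the annotation used here is not the version the authors used, so bounds on UTRN forms are approximate.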
